A study of Mus musculus with 12 samples.

Results

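Of 121336 open chromatin regions measured by ATAC-seq in mouse bone marrow progenitors, 889 (0.733%) were open in wild-type LSK cells, at least 3-fold less open in wild-type GMP, and already at least 3-fold less open in LSK cells of mice that lack the upstream regulatory element (URE) of Spi1. LSK cells (Lin- Sca-1+ c-Kit+) hold the stem cells and earliest progenitors, and GMP are the granulocyte-monocyte progenitors they give rise to, sorted as Lin- Sca-1- c-Kit+ Cd16/32+. Both cell types were taken from the bone marrow of wild-type mice (WT-LSK and WT-GMP) and of UREd/d mice (URE-LSK and URE-GMP), with 3 libraries in each of the 4 groups. All mice were littermates on a C57BL/6 background aged 8 to 12 weeks. The UREd/d deletion is germline and present in every cell of the animal, so both sorted populations had developed without the enhancer, and effects that arise outside LSK and GMP cells cannot be told apart from effects within them. The regions were chosen by the values themselves: the mean CPM (counts divided by the library total and multiplied by 1e6) of each group plus 0.25 had to be at least 2 in WT-LSK, at least 3 times higher in WT-LSK than in WT-GMP, at least 3 times lower in URE-LSK than in WT-LSK, and less than 3 times higher in URE-GMP than in WT-GMP. WT-LSK enters both of the first ratios, so error in WT-LSK bears on both in the same direction, and the levels that chose the regions are given as a description with no test. Of the 6343 regions that were open in WT-LSK and 3-fold lower in WT-GMP (LSK regions), the 889 lost ones made up 14% and 5296 (83.5%) were kept in URE-LSK. Kept means here that URE-LSK was not 3-fold or more below WT-LSK, and not that the level was unchanged. The remaining 158 were at least 3-fold higher in URE-GMP than in WT-GMP. The last criterion removed none of the 889.

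Spi1 encodes PU.1, an ETS family transcription factor that binds purine-rich sequences around a GGAA core and opens chromatin at enhancers of myeloid and B cell genes. The URE is the main distal enhancer of Spi1 and keeps its expression high in stem and progenitor cells. During normal differentiation from LSK to GMP, part of the enhancers used by stem and multipotent cells close, so a region that is lost in URE-LSK and also lost in WT-GMP disappears along both routes. In the libraries the deletion was visible at the element itself: the region at chr2:91082790-91083700 (GRCm38), upstream of the Spi1 promoter region, held 974 to 2110 counts in each WT-LSK or WT-GMP library and 0 to 6 counts in each URE library.

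The sequences of 5 of the lost regions are shown because they carry the PU.1 motif GAGGAAGT in their central 300 bases, or, for the last, because it was the lost region with the highest WT-LSK level and holds none. They are named by the nearest protein-coding gene, which is not shown to be the target of the region, and are given from the RefSeq GRCm38 sequence, plus strand, 5′ to 3′, with the motif or its reverse complement in capitals.
Tmem132e, chr11:82541937-82542236: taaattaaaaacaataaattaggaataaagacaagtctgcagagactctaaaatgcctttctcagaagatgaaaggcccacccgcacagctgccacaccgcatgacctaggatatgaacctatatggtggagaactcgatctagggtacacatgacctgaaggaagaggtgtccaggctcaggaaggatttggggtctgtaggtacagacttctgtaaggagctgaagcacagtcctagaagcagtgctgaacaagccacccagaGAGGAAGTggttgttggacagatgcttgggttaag
H2-Aa, chr17:34293567-34293866: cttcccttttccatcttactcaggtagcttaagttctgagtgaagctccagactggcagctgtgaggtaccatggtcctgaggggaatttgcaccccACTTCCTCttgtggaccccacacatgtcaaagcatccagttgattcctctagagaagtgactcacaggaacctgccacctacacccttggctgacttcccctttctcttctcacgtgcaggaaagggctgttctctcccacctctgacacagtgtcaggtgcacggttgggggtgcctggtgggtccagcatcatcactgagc
Prdm16, chr4:154531320-154531619: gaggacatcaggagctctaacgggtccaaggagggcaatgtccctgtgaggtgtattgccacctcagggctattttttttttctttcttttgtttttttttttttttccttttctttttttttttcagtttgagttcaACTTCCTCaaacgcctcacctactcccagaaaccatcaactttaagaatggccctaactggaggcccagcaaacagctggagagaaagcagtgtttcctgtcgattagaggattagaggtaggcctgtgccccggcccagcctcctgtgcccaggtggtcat
Tcf12, chr9:71837935-71838234: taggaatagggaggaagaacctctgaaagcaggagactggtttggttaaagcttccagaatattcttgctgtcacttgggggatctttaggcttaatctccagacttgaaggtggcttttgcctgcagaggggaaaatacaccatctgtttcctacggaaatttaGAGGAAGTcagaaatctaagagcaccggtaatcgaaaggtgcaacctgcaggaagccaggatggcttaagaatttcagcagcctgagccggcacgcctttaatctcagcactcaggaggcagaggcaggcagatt
Tbx3, chr5:119732934-119733233: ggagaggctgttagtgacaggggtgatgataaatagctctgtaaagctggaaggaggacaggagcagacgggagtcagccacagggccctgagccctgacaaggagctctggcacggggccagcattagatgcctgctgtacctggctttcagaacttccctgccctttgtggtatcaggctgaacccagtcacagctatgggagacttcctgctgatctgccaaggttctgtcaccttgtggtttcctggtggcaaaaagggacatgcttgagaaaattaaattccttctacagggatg

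Replicate libraries of a group correlated at r = 0.94 to 0.98 across regions (log2 CPM, all regions, which are not independent replicates), against 0.47 to 0.827 between groups, and library totals ranged from 23072701 to 62204826 counts. The sorted cell types differed in the summed promoter accessibility of their markers. The summed CPM at 9 of 10 GMP markers was 211 to 224 in WT-LSK and 562 to 711 in WT-GMP libraries. The sum at 9 of 10 LSK markers was 452 to 462 and 330 to 377 CPM. Mpo, a granule enzyme of the GMP stage, had the largest difference, with means of 35.1 and 306 CPM. Elane (1.34 and 14.2) and Esam (45.3 and 21.1) also separated the cell types. Other markers hardly did: Kit, on both lists, had 74.4 and 70.8 CPM, Hlf 48.1 and 44.1, and Csf3r 21.6 and 25.3. Procr, an LSK marker, was slightly higher in WT-GMP (7.25 and 7.89). No region lay at the start sites of Ly6a (Sca-1) and Fcgr3 (Cd16). Between WT-LSK and URE-LSK, LSK markers summed to 452 to 462 and 412 to 449 CPM, GMP markers to 211 to 224 and 197 to 248, B cell markers (3 of 8 measured) to 27 to 30 and 31.4 to 31.9, T cell markers (4 of 8) to 69.6 to 78.7 and 82.8 to 86.4, erythroid markers (3 of 8) to 19.9 to 24.6 and 24.5 to 27.4, mature myeloid markers (7 of 8) to 61.9 to 67 and 39.8 to 44.5, and non-haematopoietic markers (5 of 8) to 66.2 to 68.6 and 51.6 to 52.6. Single genes of a list did not all follow its sum. In WT-LSK and URE-LSK, Ctsg of the GMP list had 3.54 and 12.5 CPM and Cd4 of the T cell list 2.41 and 0.0748. Of the mature myeloid list, Cx3cr1 (16.5 and 3.91) and Itgam (9.09 and 0.459) were lower, and Camp (0.538 and 1.4) and Mmp9 (17.2 and 22) higher. Cdh5 of the non-haematopoietic list had 11.3 and 1.95 CPM. Defining markers with no region at their start sites were Cd79a for B cells, Cd3e for T cells, Klf1 for erythroid cells and Ly6g for neutrophils. The part of cell composition in the lost regions was not tested, and in sorted bulk cells a smaller share of cells with a region open and a lower accessibility in each cell cannot be told apart.

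In WT-LSK the 889 lost regions had median levels of 3.41, 3.51 and 4.06 CPM in the 3 libraries. In URE-LSK the medians were 0.34, 0.52 and 0.303 CPM, in WT-GMP 0.537, 0.655 and 0.899 CPM, and in URE-GMP 0.143, 0.161 and 0.159 CPM. The regions together took up 0.445% ± 0.0306 (SD, n = 3) of all counts for WT-LSK and 0.06% ± 0.0149 for URE-LSK, and 0.0937% ± 0.0252 and 0.0212% ± 0.000862 for WT-GMP and URE-GMP. From high to low the order was WT-LSK, WT-GMP, URE-LSK, URE-GMP, and the libraries of the 2 middle groups overlapped: WT-GMP held 0.072% to 0.121% and URE-LSK 0.0494% to 0.0771%. WT-GMP replicate 3 was the highest of its group both in the lost regions and in the kept ones (1.06 CPM against 0.66 and 0.699).

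**Figure D1:**
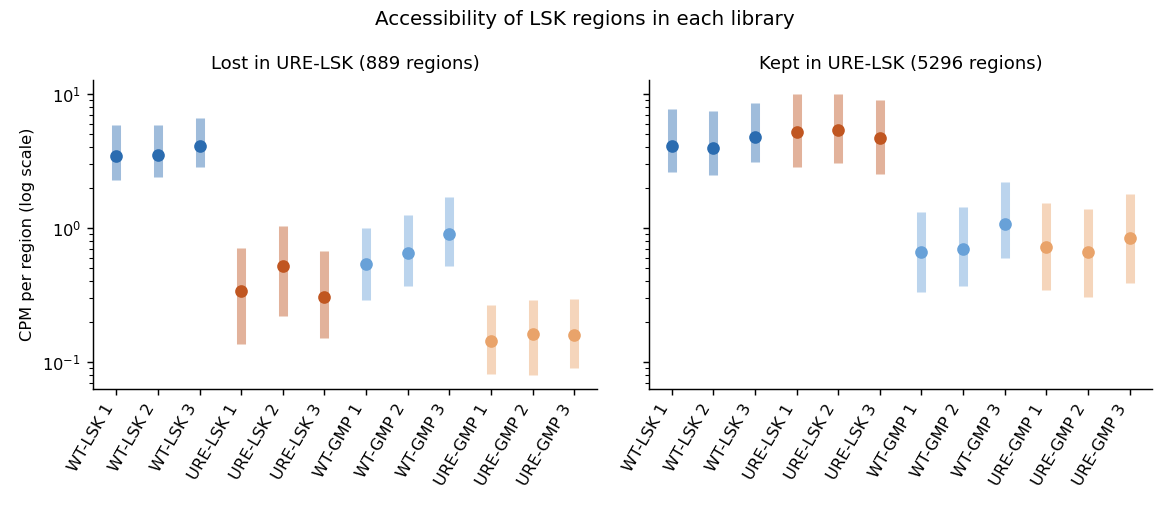
Median (point) and interquartile range (bar) of CPM per region on a log axis, in each of the 12 libraries, for the 889 LSK regions lost in URE-LSK (left) and the 5296 kept (right). Lost regions had medians of 0.303 to 0.52 CPM in URE-LSK and 0.143 to 0.161 CPM in URE-GMP, while kept regions had medians of 4.64 to 5.33 CPM in URE-LSK and of 0.659 to 0.841 CPM in URE-GMP.

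Most lost regions were of modest height. Mean WT-LSK levels ran from 1.76 to 39.8 CPM, with 598 regions (67.3%) under 5 CPM and 85 (9.56%) at 10 CPM or more. The median fall from WT-LSK to URE-LSK was 5.75-fold (quartiles 4 and 8.46, largest 31.6), computed on means plus 0.25, which understates the change of low regions. In 526 regions (59.2%) the fall was at least 5-fold and in 158 (17.8%) at least 10-fold. In 26 regions no URE-LSK library held more than 3 counts, which corresponds to a mean of 0.0717 CPM. All 3 URE-LSK libraries lay below all 3 WT-LSK libraries in all 889 regions, as they did in 34.5% of all 121336 regions, and these are the values that chose the regions.

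With edgeR's quasi-likelihood test over all regions (called at a Benjamini-Hochberg adjusted p under 0.05 and an absolute log2 fold change over 1), all 889 were called lower in URE-LSK than in WT-LSK, beside 23.9% of all regions, and all 889 were called lower in WT-GMP than in WT-LSK, beside 16.8%. These counts repeat the selection on the same values and nothing is read from them. The kept LSK regions were not all unchanged in URE-LSK. Against WT-LSK, 472 of them (8.91%) were called lower and 788 (14.9%) higher.

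The levels in URE-LSK and WT-GMP, both of which the selection used, were close in many lost regions. The mean in URE-LSK was below that in WT-GMP in 645 lost regions (72.6%) and at or above it in 244 (27.4%), with a median ratio of URE-LSK to WT-GMP of 0.707 (quartiles 0.468 and 1.02). All 3 URE-LSK libraries lay below all 3 WT-GMP libraries in 366 lost regions (41.2%), a share close to the 39.2% of all regions. In the kept LSK regions the same ratio had a median of 4.56. These levels come from the groups that chose the regions.

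**Figure D2:**
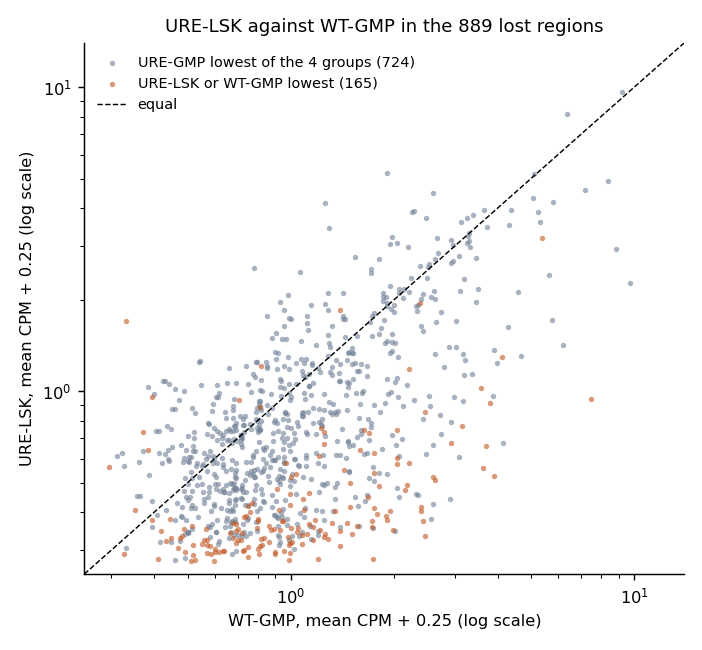
Mean URE-LSK against mean WT-GMP level (CPM + 0.25, log axes) of the 889 lost regions, 1 point a region, coloured by whether URE-GMP was the lowest of the 4 groups. Points below the dashed line of equal values number 645, and URE-GMP was the lowest group in 724 regions.

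Between URE-LSK and URE-GMP the lost regions fell further. URE-GMP was the lowest of the 4 groups in 724 regions (81.4%), URE-LSK in 155 (17.4%) and WT-GMP in 10 (1.12%). In the URE mice 451 lost regions (50.7%) were called lower in GMP than in LSK, beside 21.6% of all regions, and 29 (3.26%) were called higher, beside 27.6% of all regions. Of the kept LSK regions, 5158 (97.4%) were called lower in this comparison and 0 higher. URE-LSK was chosen to be low in the lost regions, so these counts describe them and are not set against each other by a test. The region with the largest rise from URE-LSK to URE-GMP among the 29, chosen after its values were seen, lay in an intron 189 kb from the start site of Npas3 (chr12:53442079-53442379), where the URE-LSK libraries had 0.113, 0.137 and 0.0433 CPM, the URE-GMP libraries 0.591, 0.932 and 0.75 CPM and the WT-LSK libraries 3.41, 4.94 and 4.81 CPM.

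URE-GMP also lay below WT-GMP. The selection only bounded this ratio from above and took regions low in WT-GMP. The median ratio of URE-GMP to WT-GMP was 0.439 (quartiles 0.32 and 0.582) in the lost regions, 0.935 in the kept LSK regions and 0.963 in all regions. The mean was below WT-GMP in 874 lost regions (98.3%), and all 3 URE-GMP libraries lay below all 3 WT-GMP libraries in 736 (82.8%), beside 35.5% of all regions. By edgeR's test 712 (80.1%) were called lower in URE-GMP than in WT-GMP, beside 24.1% of all regions, and 1 was called higher, beside 15.6% of all regions. Of the kept LSK regions, 901 (17%) were called lower and 705 (13.3%) higher. The 1 lost region that was higher in URE-GMP, named after its values were seen, lay in an intron 1.91 kb from a start site of Abo (chr2:26862908-26863239), a glycosyltransferase gene, with 0.826, 1.51 and 1.09 CPM in WT-GMP and 3.49, 2.7 and 2.84 CPM in URE-GMP, after 1.63, 1.29 and 1.89 CPM in URE-LSK. Levels in URE-GMP were near what few counts give: 3 counts corresponded to 0.0592 CPM, and in 41 lost regions no URE-GMP library held more.

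To read the same measures in libraries that had not chosen the regions, the selection was repeated on 2 replicate numbers of every group and read in the remaining library of each group, which allows no test. Leaving out replicate 1, 2 or 3 chose 840, 1036 and 987 regions. In the libraries left out, the median ratio of URE-LSK to WT-LSK was 0.183, 0.254 and 0.138, against 1.19, 1.28 and 0.945 in kept regions chosen the same way. The fall was at least 3-fold in 86.2%, 65.7% and 93.4% of the chosen regions. The median ratio of WT-LSK to WT-GMP in the left-out libraries was 4.34, 3.88 and 3.01, and it was at least 3 in 82.9%, 73.7% and 50.7%, the lowest share being that of replicate 3, whose WT-GMP library was the highest of its group. Both criteria held together in 72.7%, 49.4% and 49.3%. URE-GMP was below WT-GMP in 91.9%, 94.9% and 98.2%, with medians of 0.536, 0.466 and 0.314 for their ratio. In the kept regions it was below in 46.3%, 52% and 66.5%, with medians of 1.06, 0.979 and 0.782, so the ratio was lowest in replicate 3, with its high WT-GMP library, in both kinds of region. The URE-LSK library with the highest level in these regions was replicate 2, and the smallest share of 3-fold falls was read in it.

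At the edges of the selection the values inside and outside were nearly the same. At the ratio of 3 between WT-LSK and WT-GMP, a region near Spon2 (3.0003) was inside and one near Cldn14 (2.9996) outside, the first falling from 12.6 to 1.38 CPM and the other from 3.87 to 0.134 CPM between WT and URE in LSK. Also near this edge, a region near Zeb2 (3.0013) was inside and one near Eri3 (2.9988) outside. At the ratio of URE-LSK to WT-LSK, regions near Efhd2 (0.3333) and Dnah9 (0.3329) were inside and regions near Rbms3 (0.3335) and Ebf2 (0.3338) outside, the last with 9.2 CPM in WT and 2.9 CPM in URE LSK.

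The lost regions were mostly distal. Of the 889, 478 (53.8%) lay in introns, 326 (36.7%) between genes and 51 (5.74%) within 500 bp of a start site of any annotated transcript (promoter regions), and the remaining ones in exons and UTRs. Promoter regions made up 8.59% of the kept LSK regions and 18.9% of all regions. The median distance to a protein-coding start site was 38.7 kb in lost, 32 kb in kept and 15.6 kb in all regions. Lost regions were narrow, with a median width of 299 bases against 362 in kept and 322 in all regions. Their median GC content was 47.7% (kept 49.3%, all 49.7%). They were spread over all autosomes and the X chromosome, at 11.1% of the LSK regions of chromosome 3 to 18.2% of those of chromosome X, and the median distance between neighbours was 1520 kb.

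The PU.1 motif GAGGAAGT was found in the central 300 bases of 123 lost regions (13.8%). It was found in 5.82% of the kept LSK regions, in 8.7% of all regions, and in 21.4% of the other 28146 regions called lower in URE-LSK than in WT-LSK. The lost LSK regions thus lay between the kept LSK regions and the rest of the lowered regions. The shorter GAGGAA was found in 58.2%, against 38.3% of kept regions, 63.2% of the other lowered regions and 39.7% of all regions, and 18.1% of lost regions held it at least 2 times, against 8.01% of kept and 9.67% of all regions. Away from promoter regions the shares with GAGGAAGT were 13.6% of lost, 5.95% of kept and 9.62% of all regions. Among regions with a WT-LSK level in the interquartile range of the lost regions, they were 14.8% of 445 lost and 5.32% of 2500 kept regions. Over the whole width of the regions the share was 15.4% in lost and 6.99% in kept regions, although the lost ones were narrower. All motifs were searched as exact letters on both strands. GAGGAAGT shares its core with the other ETS letters used here, and a match is a description and not a measured binding site.

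The motif was densest at the middle of the lost regions. Within 50 bases of the centre there were 9.9 motifs per 100 lost regions, 2.83 per 100 kept regions and 5.41 per 100 regions overall. At 400 to 500 bases from the centre, the densities per 100 regions and 100 bases were 0.562, 0.727 and 0.643. In the sequences shown above the motif starts at base 139 of the 300 near Prdm16, at base 166 near Tcf12, at base 98 near H2-Aa and, towards the edge of the window, at base 266 near Tmem132e. Among the lost regions, the falls with and without the motif were of similar size. The median fall in URE-LSK was 6.22-fold in the 123 lost regions with GAGGAAGT and 5.71-fold in the 766 without, and 14.8% of the regions that fell at least 5-fold held it, against 12.4% of those that fell 3- to 5-fold. The selection admitted only falls of at least 3-fold, so these values cannot show how the motif relates to the size of a fall.

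**Figure D3:**
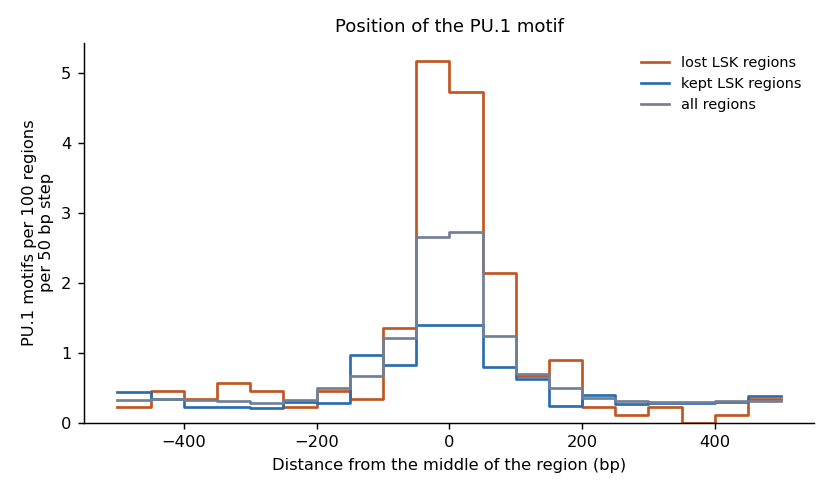
Number of PU.1 motifs (GAGGAAGT, both strands) per 100 regions in steps of 50 bp, by distance from the middle of the region, in lost, kept and all regions. The lost regions have the highest peak at the middle, with 9.9 motifs per 100 regions within 50 bases, against 2.83 in kept regions, and the 3 lines meet at the flanks.

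Other motifs had other orders. AP-1 letters (TGANTCA) were found in 8.1% of lost, 15.2% of kept, 10.9% of other lowered and 12.1% of all regions. For RUNX letters (AACCACA) the shares in this order were 15.2%, 20.4%, 12.2% and 14.4%. The HOX-PBX letters (TGATTTAT), bound by homeobox factors that are active in stem cells, were found in 4.39% of lost and 3.68% of kept LSK regions, against 1.13% of all regions and 1.18% of the other regions lowered in URE-LSK. CEBP letters (TTGCNNAA), of factors that drive granulocyte and monocyte genes, were found in 9.34% of lost, 10.4% of kept, 16.1% of other lowered and 16.4% of all regions. The ETS-IRF composite (GGAANNGAA), which can overlap GAGGAAGT, was found in 9.11% of lost, 8.06% of kept, 16.2% of other lowered and 10.9% of all regions. GATA letters (AGATAAG) were found in 5.17% of lost, 5.99% of kept, 4.38% of other lowered and 4.25% of all regions. In the same order, E-box letters (CAGCTG) were found in 25.4%, 25.5%, 19.8% and 20.5%, and EBF letters (TCCCNNGGG) in 3.6%, 4.32%, 4.43% and 5.1%. The letters CCGGAAGT of other ETS factors were found in 1 lost region (0.112%), 0.453% of kept and 1.22% of all regions. The MEF2 letters (CTATTTATA) were found in 3 lost regions (0.337%), 0.472% of kept and 0.335% of all regions. The CTCF motif, of the factor that anchors chromatin loops, was found in 1 lost region, 0.302% of kept and 3.75% of all regions. The HOX-PBX, RUNX, E-box and GATA shares were higher in both kinds of LSK region than in the other lowered regions. The PU.1, CEBP, ETS-IRF and EBF shares were lower in both kinds than in the other lowered regions. No test was made of any of these shares.

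**Figure D4:**
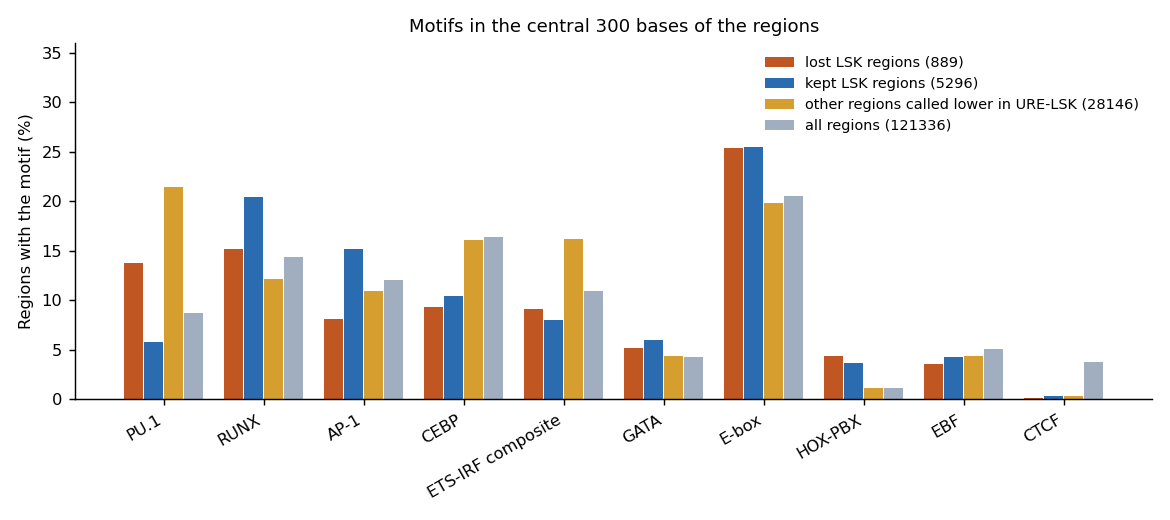
Share of regions (%, axis from 0) with each motif in the central 300 bases, for lost LSK regions, kept LSK regions, the other regions called lower in URE-LSK and all regions. The lost regions stand at 13.8% for PU.1, between 5.82% in kept and 21.4% in other lowered regions, and at 4.39% for HOX-PBX, against 1.18% in other lowered regions.

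In each of the 10 lost regions with the highest WT-LSK levels, all 3 URE-LSK libraries lay below all 3 WT-LSK libraries, as in all 889. The highest lay between genes, 62.1 kb from the start site of Tbx3 (chr5:119732693-119733475), a T-box transcription factor gene. It had 40.9, 38.4 and 40.1 CPM in the WT-LSK libraries against 8.3, 12.2 and 7.52 in the URE-LSK ones, then 8.21, 8.17 and 10.5 for WT-GMP and 1.14, 0.804 and 0.705 for URE-GMP. URE-LSK and WT-GMP overlapped there, and URE-GMP lay well below both.

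A different order of the means was seen 5.89 kb upstream of H2-Aa (chr17:34293471-34293962, in an intron of an annotated transcript), a gene of the MHC class II complex that presents antigen on B and dendritic cells. Its levels were 26, 27.2 and 21.1 CPM in the WT-LSK libraries, 0.476, 1.04 and 0.563 CPM in those of URE-LSK, 7.1, 7.54 and 7.02 CPM for WT-GMP and 1.26, 1.7 and 0.728 CPM for URE-GMP. URE-LSK fell 26.5-fold from WT-LSK and lay below WT-GMP in every library. This region was the only 1 of the 10 in which URE-LSK and not URE-GMP had the lowest mean. The URE-LSK and URE-GMP libraries overlapped there. Their difference (log2 fold change 0.94, GMP against LSK in URE) passed the adjusted p threshold and missed a call only by the fold change threshold of 1. URE-LSK had been chosen to be low in this region.

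The region near Prdm16 (chr4:154531167-154531773), a chromatin regulator needed by haematopoietic stem cells, lay in an intron 105 kb from its nearest protein-coding start site. It had 21.3, 21.5 and 30.3 CPM in the WT-LSK libraries against 7.76, 9.24 and 6.63 in the URE-LSK ones, then 5.12, 5.16 and 8.02 for WT-GMP and 1.94, 1.27 and 2.21 for URE-GMP. It was near the edge of the selection, with a 3.03-fold fall. The region 153 kb from Tmem132e (chr11:82541752-82542422) had 28.8, 28.1 and 27.7 CPM in the WT-LSK libraries, 3.99, 5.71 and 3.25 CPM in those of URE-LSK, 5.57, 5.35 and 9.93 CPM for WT-GMP and 0.285, 0.209 and 0.341 CPM for URE-GMP, and its URE-GMP level relative to WT-GMP (0.0734) was the smallest of all 889.

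The remaining 6 of the 10 lay near Chrac1, Pot1a, Rgs6, Tmem167, Camk2n1 and Stx8. Their mean levels ran from 20.7 CPM (Stx8) to 30.3 CPM (Chrac1) in WT-LSK, from 1.17 CPM (Tmem167) to 4.65 CPM (Rgs6) in URE-LSK, from 5.08 CPM (Stx8) to 9.44 CPM (Chrac1) in WT-GMP and from 0.308 CPM (Stx8) to 1.03 CPM (Chrac1) in URE-GMP. In the region near Stx8 the URE-LSK libraries spread most, at 2.4, 6.23 and 1.45 CPM. In 8 of the 10, the mean in URE-LSK was below that in WT-GMP, the exceptions being those near Tbx3 and Prdm16.

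**Figure D5:**
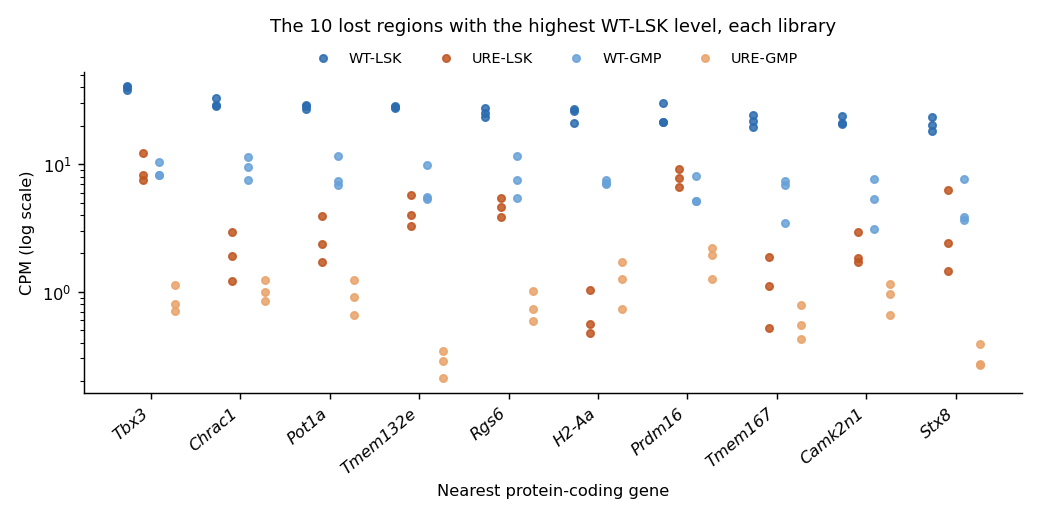
CPM (log axis) in each of the 12 libraries for the 10 lost regions with the highest WT-LSK level, named by the nearest protein-coding gene, 1 point a library. WT-LSK lies above all other groups in every region, and URE-GMP has the lowest mean in 9 of the 10, the exception being the region near H2-Aa.

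The 3 regions with the deepest falls in means plus 0.25 lay near Fam181b, Ankrd34c and Six2. The order depends on this constant: a region near Kynu with means of 6.76 and 0.0302 CPM in WT and URE LSK fell further in CPM without it. The region 43.2 kb upstream of Ankrd34c (chr9:89781465-89781954) fell 29.8-fold, from 13.1, 13.5 and 12.9 CPM in the WT-LSK libraries to 0.113, 0.355 and 0.13 CPM in those of URE-LSK, while the GMP libraries had 1.49, 1.2 and 2.74 CPM (WT) and 0.102, 0.161 and 0.182 CPM (URE). URE-LSK and URE-GMP overlapped there, both below WT-GMP. In the region near Fam181b (chr7:94415349-94415843), 1340 kb away, WT-LSK had 9.09, 10.4 and 18.2 CPM and URE-LSK 0.136, 0.109 and 0.217 CPM, and in that near Six2 (chr17:85728218-85728873) the means were 11.8 and 0.19 CPM.

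By nearest protein-coding start site within 100 kb, stem cell genes had 6 lost regions (0.675% of the lost, 0.68% of the kept and 0.486% of all regions). They lay at Fli1, Mecom, Mllt3 and Nkx2-3. Near Fli1 (chr9:32613016-32613499), an ETS factor gene of stem cells and megakaryocytes, the region 70.4 kb upstream of its start site and at the start of a non-coding transcript had 9.4, 7.89 and 6.84 CPM in the WT-LSK libraries against 2.29, 2.49 and 1.86 in the URE-LSK ones, then 0.867, 0.721 and 0.851 for WT-GMP and 0.347, 0.241 and 0.182 for URE-GMP. Here URE-LSK stayed above WT-GMP in every library. In the intronic region near Mecom (chr3:30466349-30466574), a zinc finger gene that maintains stem cells, the means were 3.06 and 0.476 CPM for WT and URE in LSK, and 0.769 and 0.213 CPM for WT and URE in GMP, and 2 of the 7 LSK regions nearest to Mecom were lost. Near Mllt3, a stem cell maintenance gene, the means were 3.45, 0.594, 0.276 and 0.241 CPM (here and where 4 means follow each other, in the order WT-LSK, URE-LSK, WT-GMP, URE-GMP), and near Nkx2-3, a homeobox gene, 6.66, 1.87, 1.96 and 0.406 CPM.

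Lymphoid priming and B lineage genes had 3 lost regions (0.337% of the lost, 0.472% of the kept and 0.374% of all regions), near Flt3, Tcf12 and Pax5. The region 1.81 kb inside Flt3 (chr5:147398247-147399114), the receptor that marks multipotent and lymphoid-primed progenitors, had 12.9, 11.7 and 6.35 CPM in the WT-LSK libraries, 2.36, 2.73 and 2.08 CPM in those of URE-LSK, 3.34, 2.56 and 2.1 CPM for WT-GMP and 0.591, 1.27 and 0.796 CPM for URE-GMP. URE-LSK and WT-GMP overlapped, and WT-LSK replicate 3 was the lowest of its group. Near Tcf12, an E protein gene, the means were 3.28 and 0.591 CPM for WT and URE in LSK, and 0.727 and 0.402 CPM for WT and URE in GMP, and near Pax5, the B cell commitment factor gene, they were 2.2, 0.363, 0.342 and 0.14 CPM. Flt3 was also the only gene of the cytokine and growth factor receptor list with a lost region (0.112% of the lost, 0.302% of the kept and 0.403% of all regions).

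Dendritic cell and MHC class II genes had 4 lost regions (0.45% of the lost, 0.132% of the kept and 0.266% of all regions), near H2-Aa, Cd83, Ciita and Cd40. The region 16.9 kb upstream of Cd83 (chr13:43767550-43768229), a surface protein of activated dendritic cells, had 14, 10.7 and 11.9 CPM in the WT-LSK libraries against 0.522, 1.09 and 0.52 in the URE-LSK ones, then 3.18, 4.35 and 3.41 for WT-GMP and 0.652, 0.579 and 0.546 for URE-GMP. In URE cells the LSK and GMP values overlapped and lay below every WT-GMP library. In an intron near Ciita (chr16:10516040-10516533), the master regulator of MHC class II transcription, the WT-LSK libraries had 7.16, 4.2 and 4.08 CPM, those of URE-LSK 0.295, 0.465 and 0.368 CPM, and the GMP libraries 0.702, 0.874 and 1.23 CPM (WT) and 0.143, 0.177 and 0.114 CPM (URE). The region in Cd40 (chr2:165056424-165056659), a costimulatory receptor gene, was low throughout, with means of 1.89, 0.222, 0.441 and 0.0906 CPM. In all 4 the mean in URE-LSK was below that in WT-GMP.

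Immune receptor signalling genes had 2 lost regions (0.225% of the lost, 0.264% of the kept and 0.628% of all regions). The one in an intron of Inpp4b (chr8:81787800-81788079), a phosphoinositide phosphatase gene, had 4.73, 3.73 and 5.89 CPM in the WT-LSK libraries, 0.0907, 0.219 and 0.195 CPM in those of URE-LSK, 1.16, 0.743 and 2.06 CPM for WT-GMP and 0.0612, 0.0322 and 0.0909 CPM for URE-GMP. The other, near Ptprj, a receptor phosphatase gene, had means of 5.61, 0.374, 1.5 and 0.486 CPM. The lists of monocyte and macrophage, neutrophil granule, erythroid and megakaryocyte, and mast cell and basophil genes had 0 lost regions, and they held 0.26%, 0.163%, 0.18% and 0.138% of all regions, shares so small that 0 among 889 says little. The study drew 4 gene signatures from expression in stem and progenitor cells of these mouse lines, so they are not independent of the comparison. Its signatures 1 to 4 had 15, 8, 13 and 15 lost regions (1.69%, 0.9%, 1.46% and 1.69% of the lost). Their shares were 2.1%, 1.79%, 2.57% and 3.23% of the kept and 2.2%, 3.21%, 2.76% and 5.23% of all regions. More of the lost regions were left unassigned by the 100 kb limit, as 27.7% lay over 100 kb from a protein-coding start site, against 22.4% of kept and 12.5% of all regions. Such a region can still lie within a gene, as the one near Prdm16 did.

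Few genes had several lost regions. Within 100 kb of a protein-coding start site lay 643 of the 889, nearest to 598 genes, of which 557 had 1, 37 had 2 and 4 had 3 lost regions. The 4 were Myo10 (3 of its 7 LSK regions), Tbc1d4 (3 of 5), Trpc6 (3 of 5) and Ttll5 (3 of 7), and the next by name with 2 were Ankrd34c, Anks1b, Apbb2, Bend5, Ccl1 and Ddr2. The highest of the regions at Trpc6, a calcium channel gene, lay 10.3 kb upstream of it (chr9:8533635-8534028), with means of 11 and 0.23 CPM for WT and URE in LSK, and 1.79 and 0.177 CPM for WT and URE in GMP. Another lost region lay within 50 kb of 104 of the 889.

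Among lost regions within 500 bp of a protein-coding start site, the 5 highest were at Hspa12a, 9130230L23Rik, Galnt6, Elavl4 and Olfr1342, with mean WT-LSK levels of 8.41, 8.2, 6.66, 6.46 and 6.2 CPM. At Galnt6 (chr15:100719863-100720417), a glycosyltransferase gene, the levels were 7.52, 5.68 and 6.78 CPM in the WT-LSK libraries against 0.726, 1.09 and 1.02 in the URE-LSK ones, then 1.28, 1.03 and 0.899 for WT-GMP and 0.612, 0.627 and 0.887 for URE-GMP. All groups other than WT-LSK lay close together there. At Elavl4 (chr4:110286469-110286796), which encodes a neuronal RNA-binding protein, the means in the order WT-LSK, URE-LSK, WT-GMP, URE-GMP were 6.46, 1.43, 0.861 and 0.15 CPM. The mean of URE-LSK was above that of WT-GMP there, but its libraries (0.907, 2.46 and 0.91 CPM) overlapped with those of WT-GMP (0.784, 0.83 and 0.97 CPM).

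The promoters of the nearest genes, which took no part in the selection, were called lower in URE-LSK about as often as all promoters. Of the 598 genes, 448 had a promoter region that was no lost region itself. By edgeR's test 16 of the 448 (3.57%) were called lower in URE-LSK than in WT-LSK and 13 (2.9%) higher, beside 3.69% and 1.96% of all 13136 promoter regions of protein-coding genes. The median log2 fold change was 0.22 at these promoters and 0.23 at all promoters. In GMP 28 (6.25%) were called lower in URE than in WT and 10 (2.23%) higher, beside 4.03% and 2.63% of all promoter regions. The shares called lower in LSK and higher in GMP were thus near or below the background. Those called higher in LSK and lower in GMP were above it, with no test of the differences.

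Among the 16 promoters called lower in URE-LSK was that of Kynu, a gene of the kynurenine pathway of tryptophan breakdown, with means of 4.73 CPM (WT) and 0.223 CPM (URE) in LSK (log2 fold change -4.28, adjusted p = 2.25e-07, edgeR quasi-likelihood test). The lost region 12.5 kb upstream of it (chr2:43542617-43542977) had means of 6.76 and 0.0302 CPM. The promoter of Nkx2-3 was the highest of the 16 and fell from 36.7 to 12.1 CPM (log2 fold change -1.48, adjusted p = 0.000272), beside 2 lost regions of that gene. The largest fall was at Plb1, a phospholipase gene, from 7.78 to 0.102 CPM (log2 fold change -6.09, adjusted p = 4.6e-09). The promoter of Aim2, a cytosolic DNA sensor gene, fell from 12.6 to 1.04 CPM (log2 fold change -3.49, adjusted p = 3.72e-09). The 4 named here were chosen from the 16 after their values were seen.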

How the data were processed

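ATAC-seq counts of 12 libraries (4 groups of 3) were used. The deposited values are raw read counts per region and library. According to the methods of the study, the authors mapped reads to GRCm38 by bowtie2, dropped PCR duplicates and reads outside the primary chromosomes, called peaks for each group with Genrich and merged them. The submitters' processing notes also name cutadapt, bedtools and featureCounts. The table's starts were read as 0-based, and printed starts are 1-based.

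The selection of regions used counts divided by library totals (23072701 to 62204826), with no test. Calls used edgeR 4.0.16 in R 4.3.3 (TMM, quasi-likelihood fit of all 12 libraries with 1 coefficient per group, BH over 121336 regions, adjusted p under 0.05 and absolute log2 fold change over 1). The filter filterByExpr removed no region, and the biological coefficient of variation was 0.185. The fit was tested on simulated data. Annotation was GENCODE M21, and sequence came from RefSeq GRCm38.p6. Motifs were searched in the central 300 bases. A gene's promoter was the region with the most counts within 500 bp of its protein-coding start sites. Named regions were the 10 highest in WT-LSK, the 3 deepest falls, the 2 nearest on each side of the 2 ratio thresholds, the 5 highest at protein-coding start sites and up to 4 per gene list, and the genes with the most lost regions. The regions and gene lists were chosen with earlier results of these data known. Libraries of a group were separate samples per the labels. The p-values rest on the spread between libraries within groups, estimated over all 4 groups together and not for each group alone. Some items are not reported here.

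Deviations of same-numbered libraries correlated at 0.181, 0.191 and 0.207 between GMP and LSK of WT mice, each above 0.1, although no label ties these libraries to 1 mouse. Alternatives were other scalings (RLE, library size, loess offsets), DESeq2 1.42.0, other filters, 2 groups per fit, the replicate block, each library left out in turn, and for the selection TMM scaling, a constant of 1, medians and separate WT-LSK libraries for the ratios.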

Additional observations from a re-analysis of the deposited data

How the results depend on the processing

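The selection depended most on the constant added to the means: with 1 in place of 0.25 it chose 184 regions, all among the 889. With CPM after TMM it chose 712, with medians of the libraries 969, and with separate WT-LSK libraries for the ratios 781, of which 682 were among the 889. Leaving out 1 library gave 737 to 1205 regions, the highest without WT-GMP replicate 3. Requiring a mean of at least 2 CPM kept 242 of the 889, of which 242 were called lower in URE-LSK, 242 in WT-GMP against WT-LSK, 225 in URE-GMP against WT-GMP and 161 in URE-GMP against URE-LSK. Under loess offsets these calls were 794, 889, 526 and 516 of 889, and in URE-GMP against WT-GMP the calls higher rose from 1 to 7. The scaling moved the median log2 fold change of all regions in URE-LSK against WT-LSK from 0.017 (library size only) to 0.283 (loess offsets), with 0.137 under TMM. With the replicate block the calls lower were 889, 889, 710 and 450. Outside GMP against LSK in WT, same-numbered libraries did not all correlate over 0.1, but some correlated more strongly. Replicates 1, 2 and 3 gave 0.0997, 0.205 and 0.349 in URE against WT in GMP. In GMP against LSK in URE they gave 0.0616, 0.273 and 0.113, and in URE against WT in LSK 0.102, 0.0625 and -0.0616. Leaving out 1 library gave 889 to 889, 889 to 889, 623 to 720 and 376 to 469 calls, the lowest of the last without URE-LSK replicate 2. In the region near Mllt3 the difference between URE-GMP and WT-GMP (log2 -0.09) turned to 0.49 under loess offsets, and leaving out 1 library gave values from -0.36 to 0.40, positive without URE-GMP replicate 1 (0.08) and without WT-GMP replicate 3 (0.40). With GAGGAA in place of GAGGAAGT, 58.2% of the lost regions held the motif. With 1000 bp in place of 500 bp, 7.99% lay at a start site, and with protein-coding start sites only 2.7%. At 3 counts in every library or fewer, as in URE-LSK in 26 regions and in URE-GMP in 41, levels cannot be ranked.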
